A study of Mus musculus with 15 samples.

Results

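The lung nodules that formed from D2.A1 cells with spindle morphology were compared with those of D2.OR cells, with both lines taken from standard plastic culture before inoculation. D2.OR and D2.A1 are mouse mammary tumor lines of the D2.HAN series, the former used as a model of dormant and the latter of outgrowing metastasis. Both sides carried the same treatment label, Unprimed-2D, and the same histology label, Spindle, so that 5 arrays were chosen from the 15 of the series by their labels alone, 3 titled D2.A1 2D spindle (nodules 1, 2 and 3) and 2 titled D2.OR 2D tumor (nodules 2 and 3). All 5 nodules grew in the lungs of young female BALB/c mice after injection of the cells into a tail vein, were preserved in formalin and paraffin, and were cut out of stained sections by laser. The other arrays were 3 epithelial D2.A1 2D nodules and the nodules of primed cells, grown for 3 to 5 days on basement membrane extract before injection (2 spindle and 2 epithelial D2.A1 3D nodules and 3 D2.OR 3D nodules). The study's legends give fewer mice per group than D2.A1 2D nodules, and no label ties a nodule to a mouse, so some nodules may share a mouse and p-values over nodules may be too small. Each line stands for 1 cell population, and host cells inside a nodule were measured together with the tumor cells.

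A tumor nodule in the lung holds tumor cells, vessels, fibroblasts and immune cells, and can border on airways, alveoli, lymphoid aggregates and the fat around the large vessels. Alveolar type II cells make surfactant, brown fat cells burn lipid in their mitochondria through the uncoupling protein, and high endothelial venules are the vessels through which lymphocytes enter lymphoid tissue. On an array of bulk tissue, fewer cells of a type and less RNA per cell cannot be told apart. Values are log2 values after Robust Multi-array Average (RMA), on which a difference of 1 is 2-fold. The median gene had a mean of 1.94, so values near 2 are close to the floor of the array and folds against them are understated.

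Both D2.OR 2D nodules carried markers of fat and lymphoid tissue, and the D2.A1 spindle nodules carried a marker of alveolar type II cells. Ucp1, the uncoupling protein of brown fat, was at 10.33 and 6.74 in D2.OR nodules 2 and 3, and Glycam1, a mucin of high endothelial venules, was at 10.48 and 11.96. Sftpc, the surfactant protein that defines alveolar type II cells, was at 3.89 and 2.02 in the same nodules, against 8.60, 8.50 and 5.35 in the D2.A1 spindle nodules. Over the 18 measured markers of fat cells the mean value was 6.08 in D2.OR nodule 2 and 3.45 in nodule 3, against 2.00 to 2.11 in the 3 D2.A1 nodules. Over the 22 measured markers of T and NK cells it was 2.79 in nodule 2 and 4.17 in nodule 3, against 1.84 to 1.96, and over the 17 of B and plasma cells 3.30 and 4.20, against 2.10 to 2.11. Nodule 2 was thus the higher in fat genes and nodule 3 in lymphocyte genes. Kcnma1, a potassium channel gene high in all D2.A1 nodules, was near the floor in both D2.OR 2D nodules (2.82 and 2.40), while the primed D2.OR nodules had 10.04, 5.20 and 10.45. S100a4 was at 2.33 and 4.13, against 6.51, 4.12 and 6.47 in the primed ones. How much tumor the 2 D2.OR 2D arrays hold was not tested, so a difference between the lines cannot be told apart from a difference in the tissue cut out, in each result that follows. Many results are therefore also given without each D2.OR nodule, and some against the 3 D2.OR 3D nodules. In the D2.OR 3D nodules the fat list averaged 2.48 to 3.81 and Sftpc 8.09 to 10.76. The D2.OR 3D nodules were primed, so that comparison is not matched for treatment, and they carry markers of other tissue as well. Over heart and skeletal muscle genes they averaged 2.17, 3.71 and 2.45, against 1.92 to 2.04 in D2.A1 2D spindle nodules. Their fat means in nodules 1 and 2 (3.70 and 3.81) were above that of D2.OR 2D nodule 3. Among the 5 arrays, correlations over all transcript clusters were 0.929 to 0.957 within D2.A1, 0.919 within D2.OR and 0.855 to 0.901 between the lines.

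Of 22184 genes, 163 were higher (0.735%) and 547 lower (2.47%) in the D2.A1 spindle nodules at an adjusted p under 0.05 (limma over all 15 arrays, Benjamini-Hochberg over all genes), which is 3.2% of genes tested in either direction. The genes that rose included the potassium channel gene Kcnma1, the calcium-binding S100 genes and a run of neighbouring genes around Myc, and those that fell included genes of fat, lymphocytes, vessels and mitochondria. The median difference was 0.02 over all genes, 1.33 over the genes that rose and −1.32 over those that fell. A difference of 3-fold or more was reached by 64 of the genes that rose and 192 of those that fell. Without D2.OR nodule 2 the counts were 111 and 961, of which 79 and 420 were genes also called with all nodules, and without nodule 3 they were 119 and 811, with 89 and 313 such genes. Of the 103 passing genes chosen for naming by a rule, 57 passed in each of the 5 fits without 1 nodule. In the fits without a D2.OR nodule, the one left was assumed to vary like the other groups. Without 1 D2.A1 spindle nodule at a time, 94 to 137 genes rose and 267 to 329 fell. With the spread estimated from the 5 arrays alone, 25 rose and 40 fell, and 76 of the 103 named genes lost their calls. Among these were S100a4, Thbs1, Timp1, Gpc1, Anln, Fabp4, Ucp1, Cox8b, Jchain and Lef1 (limma, adjusted p 0.054 to 0.097). The SE values given come from the fit over all 15 arrays, and not from the spread of the 5 arrays alone. With the D2.OR 3D nodules in place of the D2.OR 2D nodules and the same D2.A1 arrays, 38 rose and 40 fell. At unadjusted p under 0.05, 5.54% of all genes were higher and 9.5% lower, and 53.6% of all genes had a positive difference. These are the shares to set beside list counts at unadjusted p, and 0.735% and 2.47% those beside members that rose or fell. With 3 arrays against 2, the lines did not overlap in 16.1% of all genes with D2.A1 higher and 13.8% with D2.A1 lower.

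Kcnma1, which encodes the pore of the large-conductance calcium-activated potassium channel, had the largest difference among the genes that rose. Its values were 10.96, 11.02 and 10.99 in the D2.A1 nodules and 2.82 and 2.40 in the D2.OR nodules. The D2.A1 nodules hardly differed from each other and lay far above both D2.OR nodules, a difference of 8.38 ± 1.09 (SE), or 333-fold (limma, adjusted p = 0.0016). In the D2.OR 3D nodules Kcnma1 was at 10.04, 5.20 and 10.45, and the difference of D2.A1 2D spindle from them was 2.43 (adjusted p = 0.43). Rhox5, an X-linked homeobox gene, was at 6.68, 6.82 and 6.14 against 1.87 and 2.03, a difference of 4.60 ± 0.84 (adjusted p = 0.011). Against the D2.OR 3D nodules Rhox5 differed by 1.985 and did not pass (limma, adjusted p = 0.4). Saa3, an acute-phase serum amyloid gene, was at 6.27, 5.80 and 6.42 against 1.85 and 1.47, a difference of 4.50 ± 0.46 (adjusted p = 0.00041). Saa3 was also 3.19 above the epithelial D2.A1 2D nodules, which did not pass the test (adjusted p = 0.10), and 2.73 above the D2.OR 3D nodules, which did (adjusted p = 0.014). Kcnma1, Rhox5 and Saa3 kept their calls with any of the 5 nodules left out.

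**Figure D1:**
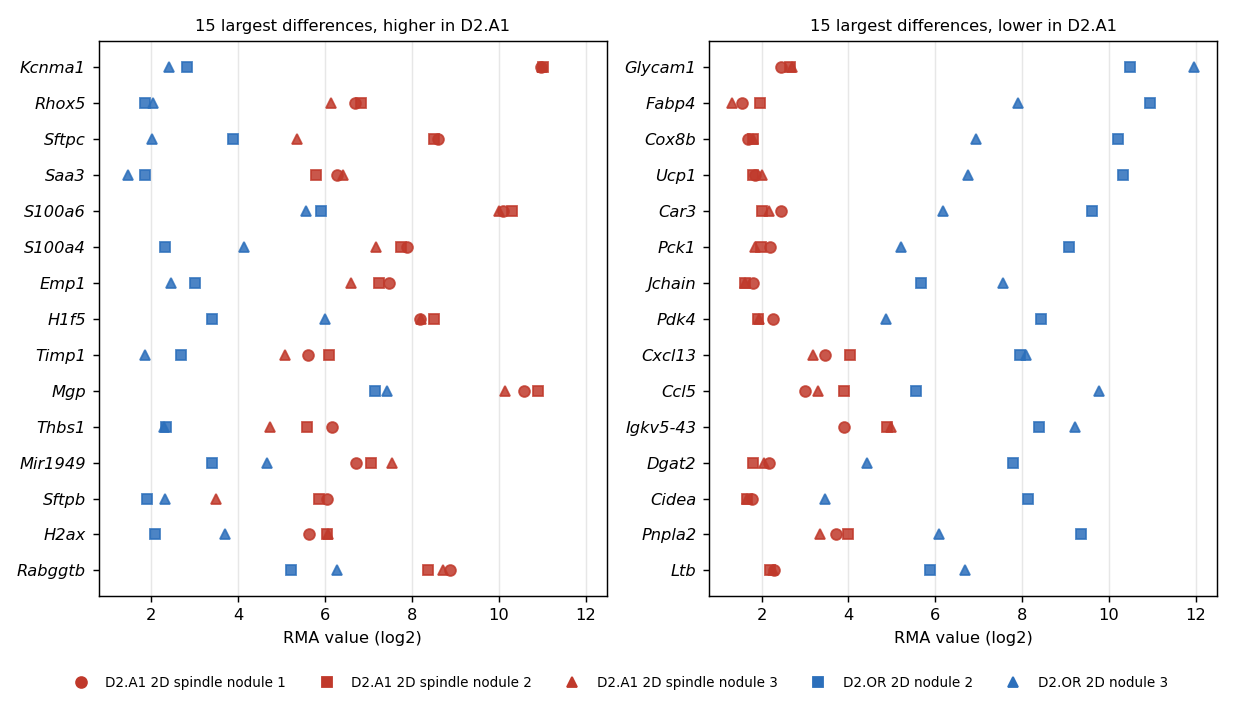
RMA values (log2, horizontal axis) of the 15 genes that rose and the 15 that fell by the most, among genes that passed and whose lines did not overlap, with 1 point for each of the 3 D2.A1 2D spindle nodules (red) and the 2 D2.OR 2D nodules (blue). The D2.A1 nodules lie close together in most genes, as in Kcnma1, while the D2.OR nodules lie apart in fat genes such as Ucp1, at 10.33 and 6.74.

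Apart from lists added after the values were seen, the list of S100 proteins, annexins and the Emp family held the most genes that rose. Its members too were chosen with earlier results of these data known, so its counts describe the list and are no independent test. S100 proteins are small calcium-binding proteins, annexins bind membranes in the presence of calcium, and Emp1 is an epithelial membrane protein. Of 21 measured members 7 rose and 1 fell, and the median of the list was 1.31 against 0.02 over all genes. S100a6 was at 10.10, 10.31 and 10.01 against 5.92 and 5.57, a difference of 4.39 ± 0.70 (adjusted p = 0.0058). S100a4, known for its expression in motile mesenchymal cells, was at 7.88, 7.76 and 7.17 against 2.33 and 4.13, a difference of 4.37 ± 0.64 (adjusted p = 0.0031). Emp1 was at 7.47, 7.23 and 6.60 against 3.00 and 2.46, a difference of 4.37 ± 0.42 (adjusted p = 0.00029). The lines did not overlap in any of these genes, which the rule for the 15 largest differences required. Each kept its call with any nodule left out. With the 5 arrays alone S100a6 and Emp1 passed (limma, adjusted p = 0.0038 and 0.023) and S100a4 did not (adjusted p = 0.07). Anxa2 (2.77), Anxa1 (2.24), S100a11 (2.02) and Anxa8 (1.55) rose as well, and Anxa6 fell by 1.64. Anxa2 lost its call without D2.OR nodule 3 or D2.A1 nodule 1 or 2. Without 1 nodule at a time 4 to 8 members rose and at most 2 fell, the low count of 4 being that without D2.A1 nodule 2. The median of the list in the primed comparison, D2.A1 3D spindle against D2.OR 3D, was 0.14, with no member past the threshold. With D2.A1 2D spindle against the D2.OR 3D nodules no member passed either, and the median was 0.43. There S100a6 differed by 1.70 (limma, adjusted p = 0.39), S100a4 by 1.90 (adjusted p = 0.27) and Emp1 by 1.90 (adjusted p = 0.067).

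S100a4 and S100a6 lie in the same S100 gene cluster, with S100a5 between them, and rose by similar amounts, so their promoters are shown, from 250 bases before to 50 after the RefSeq gene start (GRCm38.p6), S100a4 at chr3:90603520-90603819 and S100a6 at chr3:90612644-90612943, both on the plus strand. Capitals mark matches on either strand to the TATA box TATAAA, the E-box CACGTG, the CAAT box CCAAT or the GC box GGGCGG, and no matches overlap here.
S100a4: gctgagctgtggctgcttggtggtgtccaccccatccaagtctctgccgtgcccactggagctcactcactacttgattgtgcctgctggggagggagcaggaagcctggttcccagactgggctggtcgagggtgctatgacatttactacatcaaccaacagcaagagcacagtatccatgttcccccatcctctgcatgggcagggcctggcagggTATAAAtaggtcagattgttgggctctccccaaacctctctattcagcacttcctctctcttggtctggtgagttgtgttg
S100a6: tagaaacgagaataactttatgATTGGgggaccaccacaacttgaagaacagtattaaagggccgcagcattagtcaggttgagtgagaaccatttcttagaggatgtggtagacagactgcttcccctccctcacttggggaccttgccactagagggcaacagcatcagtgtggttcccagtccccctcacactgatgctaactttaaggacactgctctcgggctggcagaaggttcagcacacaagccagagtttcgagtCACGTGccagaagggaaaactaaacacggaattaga
S100a4 held 1 TATAAA, found in 13.6% of all 32851 promoter windows of the table, and S100a6 held 1 CACGTG (7.15% of windows) and 1 CCAAT (37.4%), while GGGCGG (35.7%) was in neither.

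Of 37 measured extracellular matrix genes 6 rose and 1 fell (median 0.36). Mgp, an inhibitor of tissue calcification, was at 10.57, 10.91 and 10.14 against 7.16 and 7.42 (3.25 ± 0.44, adjusted p = 0.0018), and Thbs1, the matricellular protein thrombospondin-1, at 6.16, 5.58 and 4.74 against 2.34 and 2.29 (3.18 ± 0.32, adjusted p = 0.0004). Timp1, an inhibitor of matrix metalloproteinases, was at 5.60, 6.09 and 5.07 against 2.69 and 1.86 (3.32 ± 0.56, adjusted p = 0.0078). The D2.A1 nodules were above both D2.OR nodules in each of these 3 genes, as the rule for the 15 largest differences required. Each kept its call with any nodule left out. With the 5 arrays alone Mgp passed (limma, adjusted p = 0.028), while Thbs1 (adjusted p = 0.071) and Timp1 (adjusted p = 0.059) did not. Against the D2.OR 3D nodules Thbs1 passed (1.98, adjusted p = 0.013), while Mgp (0.85, adjusted p = 0.52) and Timp1 (1.14, adjusted p = 0.49) did not. Of the matrix list 1 rose and 1 fell there, and the median was −0.31. Lama5 (1.72), Col5a1 (1.52), Eln (1.52) and Ccn2 (1.06) rose, and Dcn, the small proteoglycan decorin of fibroblasts, fell by 3.26, from 6.12 and 5.48 in D2.OR to 2.30, 2.67 and 2.63. Of the matrix list, 3 to 5 members rose without 1 nodule at a time, 3 of them without D2.A1 nodule 1 or 2. Gpc1, a glypican that carries heparan sulfate at the cell surface, was at 6.89, 6.95 and 6.17 against 3.30 and 4.44 (2.80 ± 0.36, adjusted p = 0.0015).

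Of 24 genes of mesenchymal transition, S100a4, Snai1 and Vim rose and Thy1 fell. Snai1, a repressor of epithelial genes, was at 4.19, 4.30 and 3.75 against 2.04 and 2.48 (1.82 ± 0.26, adjusted p = 0.0028). Vim, the intermediate filament of mesenchymal cells, was high on both sides, at 9.60, 9.64 and 9.58 against 7.94 and 8.08 (1.60 ± 0.39, adjusted p = 0.046), and lost its call with any 1 nodule left out (adjusted p 0.11 to 0.15). None of 24 epithelial keratin and junction genes passed (limma, with 2 higher and 2 lower at unadjusted p under 0.05), among which Krt8 was at 5.39, 5.92 and 4.15 against 3.66 and 3.57 (adjusted p = 0.21) and Cd24a at 4.36, 5.01 and 3.29 against 5.11 and 6.37 (adjusted p = 0.19). Itga3, an integrin subunit for laminin, rose by 2.14 (adjusted p = 0.015) and Itga4 fell by 1.70 (adjusted p = 0.010), in a list of 35 integrin and focal adhesion genes in which 1 rose and 2 fell. Itga3 lost its call without D2.OR nodule 3 (adjusted p = 0.064) or D2.A1 nodule 1 (adjusted p = 0.060), and Thy1 without D2.OR nodule 3 or any D2.A1 nodule.

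Most cell cycle genes were higher in the D2.A1 nodules, though by small amounts for many. Of 41 measured members 39 had a positive difference, against 53.6% of all genes, and the median was 0.50. At the threshold 4 rose, where 0.735% of all genes did, and none fell (limma, with 19 higher and 1 lower at unadjusted p under 0.05). Without any 1 nodule 1 member rose. Ccna2, the cyclin of DNA replication, was at 4.40, 4.97 and 4.29 against 2.26 and 2.32 (2.26 ± 0.50, adjusted p = 0.029), and Anln, the actin-binding protein of the cleavage furrow, at 3.55, 4.11 and 3.52 against 2.00 and 1.91 (1.77 ± 0.33, adjusted p = 0.012). Cdk2 (0.71) and Tpx2 (0.50) rose by less. Anln kept its call with any nodule left out, and Ccna2, Cdk2 and Tpx2 lost theirs with each of the 5 (adjusted p 0.053 to 0.20). In the primed comparison the median of the list was 0.05. Against the D2.OR 3D nodules no member passed, and the median was 0.12. Among 17 inhibitors of the cell cycle and senescence genes, Cdkn2a, which encodes the p16 and p19 tumor suppressors, rose from 3.91 and 2.76 to 5.90, 5.83 and 5.09 (2.27 ± 0.34, adjusted p = 0.0032). Igfbp5, a binding protein of insulin-like growth factors, fell by 2.85, from 5.49 and 4.84 to 2.14, 2.63 and 2.18 (adjusted p = 0.00091), and Btg2 (−1.90) and Rb1 (−1.11) fell as well, Rb1 with its call lost without D2.OR nodule 3 or any D2.A1 nodule. Igfbp5 was also lower in the primed nodules, by 3.17 (adjusted p = 0.0019). Of 19 feedback genes of the MAPK pathway, Myc, Ier3 (1.25) and Spry1 (1.14) rose and none fell, and Ier3 and Spry1 lost their calls without D2.OR nodule 3 or D2.A1 nodule 1 or 2.

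Myc lay in a run of neighbouring genes on chromosome 15 that were higher together, a pattern chosen after the values were seen. The transcription factor gene Myc itself was at 5.84, 5.95 and 6.54 in D2.A1 against 3.00 and 3.54 in D2.OR (2.84 ± 0.30, adjusted p = 0.00045). From Trmt12 to Pvt1, 16 measured genes lie in order, and all 16 had a positive difference, 10 rose, none fell, and their median was 1.48. Sqle, the squalene epoxidase of cholesterol synthesis, was at 5.25, 5.18 and 4.50 against 2.45 and 2.12 (2.69 ± 0.31, adjusted p = 0.00091). Mtss1, a scaffold protein of the actin cytoskeleton, was at 7.24, 7.04 and 6.48 against 4.56 and 4.43 (2.43 ± 0.23, adjusted p = 0.00029). In both genes each D2.A1 nodule was above each D2.OR nodule.

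The other members of the run that rose were D030024E09Rik (2.50), Washc5, a subunit of the WASH complex on endosomes (2.31), Nsmce2, a SUMO ligase (1.74), Pvt1, a long noncoding RNA gene (1.51), Tatdn1 (1.44), Trmt12, a tRNA-modifying enzyme (1.33), and Trib1, a pseudokinase (1.07). Rnf139 (1.62), Ndufb9 (0.90), Zfp572 (0.65), Gm19510 (0.61), 4933412E24Rik (0.66) and A1bg (0.65) did not pass. After Pvt1 the differences had either sign (12 of 20 positive). Before Trmt12 smaller positive differences went on over more genes (15 of 20 positive), as in Fam91a1 (0.72) and Atad2 (0.95). Of the 20 measured genes before it none rose or fell and their median was 0.27, with Tmem65, the neighbour of Trmt12, at 0.94 (adjusted p = 0.080), and of the 20 after it none rose or fell and their median was 0.04 (limma, with 7 higher before and 1 higher and 2 lower after at unadjusted p under 0.05). Over the 21992 genes with a position, no other window of 21 neighbouring genes held more than 3 genes that rose, against 10 here. The run and its ends were picked from these same differences, so this scan describes the run and is no separate test. The run held 10 genes that rose with each D2.A1 nodule left out and 11 and 10 without D2.OR nodules 2 and 3, 7 with the 5 arrays alone, and 10 against the D2.OR 3D nodules. In the primed comparison, which shares no array with the unprimed one, Mtss1 (3.43), Myc (2.52), Nsmce2 (2.43), Sqle (2.23), Washc5 (1.67) and Trib1 (1.05) rose, 6 of the 23 genes that rose in all (0.104% of genes tested), and all 16 differences were positive with a median of 1.31. In the epithelial D2.A1 2D nodules against the same D2.OR 2D nodules 6 members of the run rose and none fell. Tatdn1 (0.38), D030024E09Rik (0.76), Trmt12 (0.57) and Pvt1 (0.77) did not pass there. Sqle was the one gene of 15 measured in cholesterol synthesis, a list added after the values were seen, that rose.

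**Figure D2:**
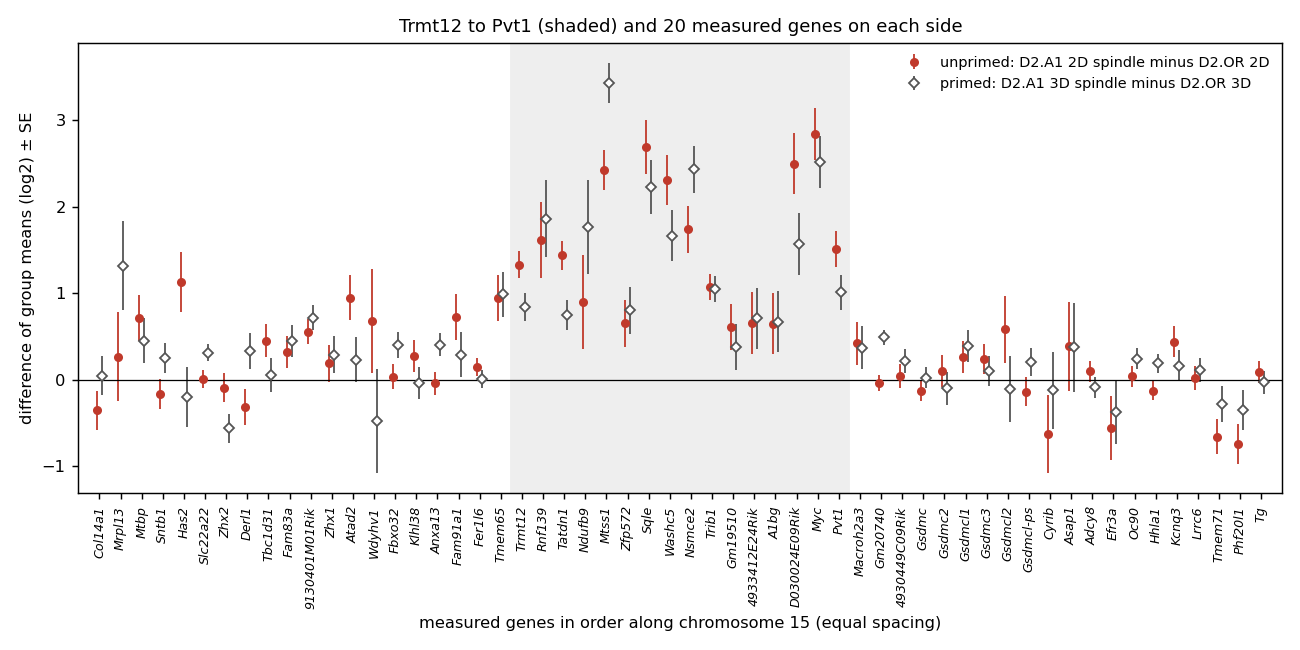
Difference between the lines (log2, vertical axis, ± SE) for 56 measured genes in their order along chromosome 15, spaced equally, in unprimed nodules (filled red, 3 D2.A1 2D spindle against 2 D2.OR 2D) and in primed nodules (open grey, 2 D2.A1 3D spindle against 3 D2.OR 3D). The shaded run from Trmt12 to Pvt1 has a median of 1.48 in unprimed and 1.31 in primed nodules, and the genes on either side have unprimed medians of 0.27 and 0.04.

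Fat cell genes fell the most among the metabolic lists. Fabp4, the fatty acid binding protein of fat cells and capillaries, was at 1.55, 1.96 and 1.32 in D2.A1 against 10.93 and 7.90 in D2.OR, 224-fold lower (−7.81 ± 0.88, adjusted p = 0.00072). Ucp1 was at 1.86, 1.81 and 2.02 against 10.33 and 6.74 (−6.64 ± 0.85, adjusted p = 0.0015), and Cox8b, the cytochrome oxidase subunit of brown fat and muscle, at 1.69, 1.79 and 1.79 against 10.20 and 6.93 (−6.81 ± 0.96, adjusted p = 0.0026). The D2.A1 values of all 3 genes were near the floor, and D2.OR nodule 2 was well above nodule 3. None of the 3 passed with the spread from the 5 arrays alone (limma, adjusted p 0.055 to 0.097). Of 18 fat cell genes 7 fell, and of 13 brown fat genes 4 fell (Cox8b, Ucp1, Cidea and Cox7a1). The other fat cell genes that fell were Car3 (−5.69), Pnpla2 (−4.05), Cidec (−3.87), Thrsp (−3.77), Cd36 (−3.46) and Lipe (−1.89). Adipoq (−2.03, adjusted p = 0.074) and Plin1 (−2.25, adjusted p = 0.12), defining genes of fat cells, did not pass, with 5.14 and 6.24 in nodule 2 and 2.82 and 2.56 in nodule 3. Without nodule 2, 3 fat cell genes fell, without nodule 3, 15 did, and without 1 D2.A1 nodule 3 to 4 did. Of the brown fat genes 3 fell without nodule 2 or any D2.A1 nodule and 8 without nodule 3. Cidea lost its call without nodule 2 or any D2.A1 nodule, and Pnpla2 without nodule 2 or D2.A1 nodule 3. Against the D2.OR 3D nodules Fabp4 (−5.18, adjusted p = 0.014), Ucp1 (−4.29, adjusted p = 0.036) and Cox8b (−4.71, adjusted p = 0.042) passed as well, being all that fell of the fat and brown fat lists (1 of 18 and 2 of 13), while Car3 (−3.16, adjusted p = 0.23), Pnpla2 (−2.09, adjusted p = 0.32) and Cidea (−1.25, adjusted p = 0.72) did not pass.

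The promoters of Cox8b and Ucp1 are shown for these genes that fell together, on the same build and window, Cox8b at chr7:140900397-140900696 on the minus strand and Ucp1 at chr8:83290098-83290397 on the plus strand, with the same motifs in capitals.
Cox8b: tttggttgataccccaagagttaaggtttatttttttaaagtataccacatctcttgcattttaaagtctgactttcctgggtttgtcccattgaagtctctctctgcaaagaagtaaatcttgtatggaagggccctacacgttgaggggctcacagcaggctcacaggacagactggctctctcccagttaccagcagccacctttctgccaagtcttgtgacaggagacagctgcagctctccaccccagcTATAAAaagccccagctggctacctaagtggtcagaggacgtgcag
Ucp1: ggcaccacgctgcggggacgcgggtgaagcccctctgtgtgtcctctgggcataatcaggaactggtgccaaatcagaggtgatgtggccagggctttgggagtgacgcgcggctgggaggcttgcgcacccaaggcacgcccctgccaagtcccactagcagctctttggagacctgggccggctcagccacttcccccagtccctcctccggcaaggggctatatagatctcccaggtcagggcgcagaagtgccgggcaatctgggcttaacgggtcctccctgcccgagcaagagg
Cox8b held 1 TATAAA, and none of the 4 motifs was spelled in the Ucp1 window.

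Mitochondrial genes were lower in the D2.A1 nodules, and the size of the difference depended on the D2.OR nodule. In the oxidative phosphorylation list 13 of 69 measured genes fell, none rose (median −1.26), in the citrate cycle list 4 of 26 fell (median −1.59), in fatty acid oxidation 4 of 26 (median −1.89) and in lipid storage and synthesis 7 of 24 (median −1.85). Cox5a, a core subunit of cytochrome oxidase, was at 4.20, 4.87 and 3.89 against 7.63 and 5.62 (−2.30 ± 0.47, adjusted p = 0.020). Ogdh, of the 2-oxoglutarate dehydrogenase complex, was at 4.02, 4.10 and 3.02 against 7.41 and 5.03 (−2.51 ± 0.55, adjusted p = 0.029), and Acadm, the medium-chain acyl-CoA dehydrogenase, at 4.10, 4.14 and 3.44 against 9.24 and 5.81 (−3.63 ± 0.71, adjusted p = 0.016). In all 3 genes both D2.OR nodules were above the D2.A1 nodules, with nodule 2 the higher. Cox5a and Ogdh lost their call without D2.OR nodule 2 (adjusted p 0.087 and 0.13), Cox5a also without D2.A1 nodule 1 or 3 and Ogdh without any D2.A1 nodule, and Acadm without D2.A1 nodule 3. Pck1, the cytosolic enzyme of glyceroneogenesis, fell by 5.13 (adjusted p = 0.0078), and Dgat2, which completes triglyceride synthesis, by 4.09 (adjusted p = 0.013).

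Without D2.OR nodule 2, 2 oxidative phosphorylation genes, 1 of the citrate cycle, 1 of fatty acid oxidation and 3 of lipid storage fell, and without nodule 3, 55, 24, 20 and 22 did. The medians moved with them, from −0.30 to −2.26 for oxidative phosphorylation and from −0.43 to −2.79 for the citrate cycle. Without 1 D2.A1 nodule at a time, 2 to 8 genes of oxidative phosphorylation, none of the citrate cycle, at most 1 of fatty acid oxidation and 2 to 3 of lipid storage fell. The mean of the fat cell list and that of each mitochondrial list were highest in nodule 2, at 6.08 for fat cells, 6.04 for oxidative phosphorylation and 6.20 for the citrate cycle, and the part of fat cells in these differences was not tested. Among 23 genes that break down branched-chain amino acids, Aldh6a1 (−2.37) was the one that fell, with 14 without D2.OR nodule 3 and none without any D2.A1 nodule. Against the D2.OR 3D nodules 1 gene of oxidative phosphorylation fell, and none of the citrate cycle, fatty acid oxidation or lipid storage passed.

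**Figure D3:**
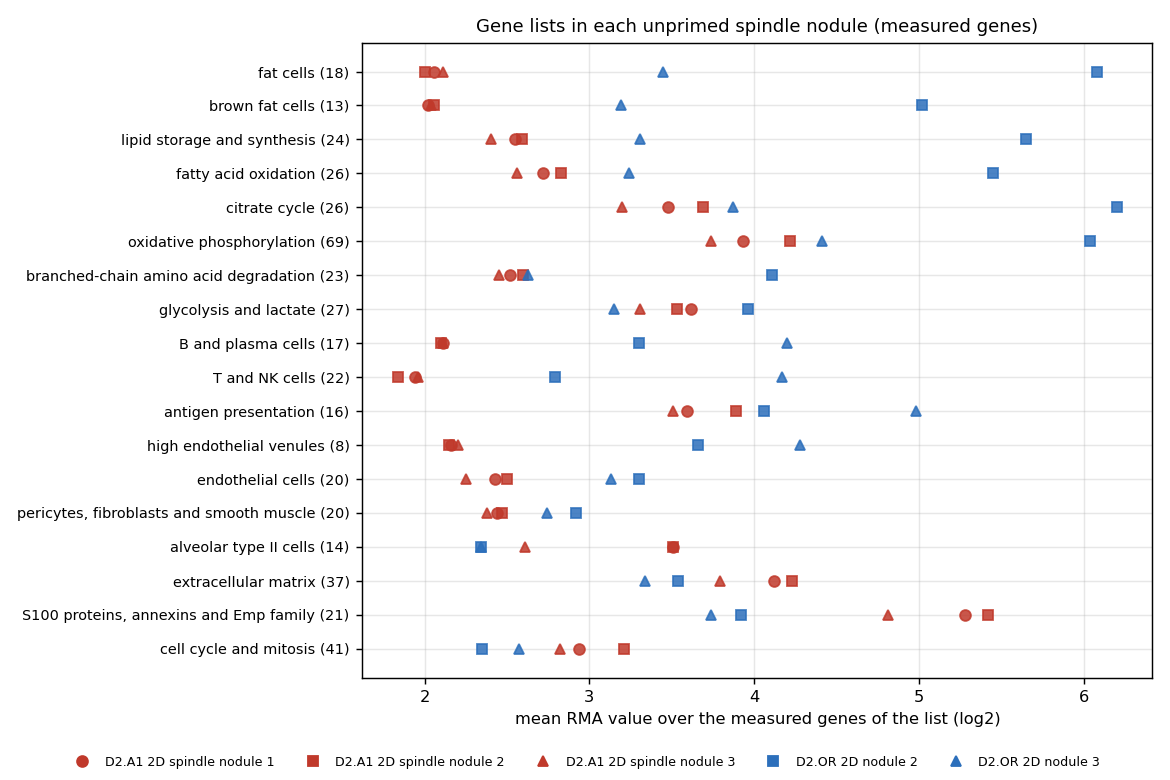
Mean RMA value (log2, horizontal axis) over the measured genes of 18 lists, with their number in parentheses, in each of the 3 D2.A1 2D spindle nodules (red) and the 2 D2.OR 2D nodules (blue). D2.OR nodule 2 has the highest means in fat and mitochondrial lists (fat cells 6.08) and nodule 3 in lymphocyte lists (T and NK cells 4.17).

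Pfkfb3, one of the bifunctional enzymes that set the level of fructose 2,6-bisphosphate, an activator of glycolysis, was lower in the D2.A1 nodules. Its values were 2.70, 2.69 and 2.48 against 5.81 and 5.45. The lines did not overlap and the spread within each was small, and the difference of −3.01 ± 0.26, or 8.03-fold lower, passed the test (adjusted p = 0.00015) in all fits without 1 nodule (adjusted p 0.00011 to 0.00096) and with the 5 arrays alone (adjusted p = 0.0079). In the D2.OR 3D nodules Pfkfb3 was at 3.57, 3.15 and 2.83, and D2.A1 2D spindle was 0.56 below them (adjusted p = 0.46). The primed difference was −0.77 (adjusted p = 0.28), and the difference between the unprimed and primed line effects, −2.24, did not pass (adjusted p = 0.082). Pfkfb2 (−0.12, adjusted p = 0.75) and Pfkfb4 (0.00, adjusted p = 1.0) were near the floor on both sides. Of 27 genes of glycolysis and lactate handling, with all nodules used, none rose and Pdk4 fell (limma, with 4 higher and 4 lower at unadjusted p under 0.05), and the median was 0.08. Pdk4, a kinase that shuts off pyruvate dehydrogenase, was at 2.26, 1.92 and 1.94 against 8.44 and 4.86 (−4.61 ± 0.86, adjusted p = 0.012). Pgk1 was at 6.88, 6.74 and 6.30 against 5.53 and 4.56 and did not pass (adjusted p = 0.056). Without D2.OR nodule 2, 4 glycolysis genes rose, Pgk1 among them (2.07, adjusted p = 0.026), and without nodule 3 none rose and 4 fell. Without D2.A1 nodule 3, 1 rose. Among 21 hypoxia genes Epas1, which encodes the oxygen-sensitive factor HIF-2α, was the one that passed (4 fell without D2.OR nodule 3), at 2.90, 3.34 and 2.22 against 6.34 and 5.12 (−2.91 ± 0.34, adjusted p = 0.0010). None of 34 autophagy genes passed (limma, with 1 higher and 7 lower at unadjusted p under 0.05). Wipi1, a protein of the early autophagosome, was at 4.12, 4.22 and 3.57 against 3.02 and 2.81 (adjusted p = 0.050), and Map1lc3b at 3.63, 4.18 and 3.36 against 4.52 and 4.52 (adjusted p = 0.30). Without D2.OR nodule 3, 3 autophagy genes fell, and without D2.A1 nodule 3, Wipi1 rose (adjusted p = 0.038).

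Genes of lymphocytes fell as groups, 13 of 17 measured B and plasma cell genes (median −1.77) and 11 of 22 T and NK cell genes (median −1.34), with none that rose in either. Jchain, the joining chain of secreted antibodies, was at 1.79, 1.62 and 1.62 in D2.A1 against 5.66 and 7.56 in D2.OR (−4.93 ± 0.64, adjusted p = 0.0016). Pou2af1, a B cell coactivator, was at 2.04, 1.92 and 2.45 against 5.09 and 6.14 (−3.47 ± 0.29, adjusted p = 0.00014), and Cd79a, of the B cell receptor, at 2.00, 2.09 and 2.08 against 4.82 and 5.87 (−3.29 ± 0.35, adjusted p = 0.00053). The D2.A1 values were near the floor in each, and D2.OR nodule 3 was the higher. Lef1, a transcription factor of T cells and of the Wnt pathway, was at 1.98, 1.97 and 1.98 against 4.92 and 6.79 (−3.88 ± 0.42, adjusted p = 0.00053), and Cd3e, of the T cell receptor complex, at 1.75, 1.84 and 1.74 against 4.08 and 5.45 (−2.99, adjusted p = 0.0016). Without nodule 3 fewer members fell, 8 of the B and plasma cell list and 8 of the T and NK cell list, and without nodule 2, 13 and 18. Without 1 D2.A1 nodule at a time 7 to 8 and 8 to 9 fell. Against the D2.OR 3D nodules 2 B and plasma cell genes (Pou2af1 and Cd79a) and no T and NK cell gene fell.

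Among 41 chemokines and cytokines 6 fell and 2 rose, Ccl9 (1.34) and Ccl6 (1.17), and of 8 genes of high endothelial venules 2 fell. Without 1 nodule at a time 4 to 8 of the former fell, 8 of them without D2.OR nodule 2, and 1 to 4 of the latter. Ltb, the lymphotoxin β of lymphocytes, was at 2.28, 2.20 and 2.26 against 5.87 and 6.69 (−4.03 ± 0.27, adjusted p = 3e-05), and was also lower in the primed comparison (−2.64, adjusted p = 0.0019). Cxcl13, which draws B cells into follicles, was at 3.46, 4.03 and 3.19 against 7.96 and 8.09 (−4.46 ± 0.55, adjusted p = 0.0013). Cxcl12, a chemokine of stromal cells, fell by 3.13 (adjusted p = 0.0064). The lines were clearly apart in these genes. Glycam1 was at 2.45, 2.66 and 2.70 against 10.48 and 11.96, the largest difference of all genes that passed (−8.62 ± 1.77, adjusted p = 0.021), and Ccl5, a T cell chemokine, at 2.99, 3.91 and 3.30 against 5.56 and 9.78 (−4.27 ± 1.02, adjusted p = 0.042). Both lost their call without D2.OR nodule 3 (adjusted p 0.096 and 0.29) or any 1 D2.A1 nodule. Ccl9 and Ccl6 did not both keep their calls without D2.OR nodule 3 or D2.A1 nodule 1 or 3, the count of members that rose being 1, 0 and 1. Of 16 genes of antigen presentation 5 fell, all of the class II pathway, with H2-Aa at 1.90, 2.32 and 1.98 against 3.15 and 3.87 (−1.45 ± 0.24, adjusted p = 0.0076). Without D2.OR nodule 2, 7 fell, without nodule 3, 2, and without 1 D2.A1 nodule 2 to 3, and H2-Ab1 and H2-Eb1 lost their calls without D2.OR nodule 3 (adjusted p 0.27 and 0.23). Among 22 macrophage and monocyte genes Arg1 (1.35) and Itgam (0.58) rose and Ly6c2 fell, from 2.86 and 4.97 in D2.OR to 1.81, 2.21 and 1.75. Itgam lost its call without D2.OR nodule 2 or D2.A1 nodule 2 or 3, and Ly6c2 without D2.OR nodule 3 or any D2.A1 nodule. None of 14 granulocyte and mast cell, 18 interferon, 7 erythroid and platelet or 16 heart and skeletal muscle genes passed (limma, with 2 granulocyte genes lower and 2 interferon genes higher at unadjusted p under 0.05).

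Vessel genes were lower in the D2.A1 nodules. Of 20 endothelial genes 8 fell and none rose (median −0.52), and without 1 nodule at a time 6 to 9 fell. Pecam1, the adhesion molecule between endothelial cells, was at 3.59, 2.99 and 3.30 against 5.11 and 5.27 (−1.90 ± 0.17, adjusted p = 0.00016). Kdr (−1.41), a receptor of vascular endothelial growth factor, Eng (−1.55), Cdh5 (−1.79), Egfl7 (−1.33), Sox18 (−1.33), Mmrn2 (−1.24) and Calcrl (−0.61) fell as well, of which Kdr and Cdh5 lost their calls without D2.OR nodule 2 and Cdh5 also without D2.A1 nodule 1 or 3. Rgs5, a marker of pericytes, was at 1.98, 1.92 and 2.17 against 6.14 and 5.12 (−3.61 ± 0.25, adjusted p = 3.1e-05). With Dcn, Des and Abcc9 it was one of 4 genes that fell among 20 of pericytes, fibroblasts and smooth muscle, and this count of 4 was the same without any 1 of the 5 nodules. The mean of the endothelial list was 3.30 and 3.13 in D2.OR nodules 2 and 3, and 2.25 to 2.50 in the D2.A1 nodules. Against the D2.OR 3D nodules 2 of the 20 endothelial genes fell, and in the primed comparison 1 did, with none that rose in either. Of the list of pericytes, fibroblasts and smooth muscle 2 fell in each of these comparisons.

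Among lung epithelial genes 2 of 14 of alveolar type II cells, 1 of 12 of type I cells and none of 11 of club and ciliated cells rose, and none fell. Sftpc rose by 4.53 ± 0.96 (adjusted p = 0.025) and Sftpb, the surfactant protein B gene, by 3.02 ± 0.61 (adjusted p = 0.020), from 1.90 and 2.31 in D2.OR to 6.04, 5.86 and 3.49, with a median of 0.39 over the type II list. D2.A1 nodule 3 was the lowest of its group in both. Sftpc lost its call without D2.OR nodule 3 (adjusted p = 0.16) and Sftpb without nodule 2 (adjusted p = 0.076), and both without D2.A1 nodule 1 or 2. Against the D2.OR 3D nodules the signs turned, to −2.21 for Sftpc (adjusted p = 0.41) and −1.47 for Sftpb (adjusted p = 0.39), neither of which passed. Aqp5, a water channel of type I cells, rose by 1.15 (adjusted p = 0.025) and Msln, of mesothelium and of some tumors, by 1.94 (adjusted p = 0.0038), each as 1 of 12, Aqp5 with its call lost without either D2.OR nodule or D2.A1 nodule 2 or 3. Scgb1a1, the secreted protein of club cells, was at 6.93 in D2.A1 nodule 1 and at 2.03 and 1.96 in nodules 2 and 3, against 3.39 and 1.89, and did not pass (adjusted p = 0.85).

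To ask whether the line difference depended on priming, the unprimed difference was set against that of the primed spindle nodules. In primed nodules 23 genes rose (0.104%) and 38 fell (0.171%). Of these, 10 and 21 were also called in unprimed nodules, which is 43.5% and 55.3% of the primed calls and 6.13% and 3.84% of the unprimed calls, and no gene was called in opposite directions. Of the 163 genes that rose in unprimed nodules 76.7% had a positive primed difference, against 48.4% of all genes, and of the 547 that fell 94.1% had a negative one, against 51.6% of all genes. Their primed medians were 0.38 and −0.51. The primed count rested on D2.OR 3D nodule 2, without which 589 genes passed in place of 61.

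By the test of the difference between the 2 line effects, 2 genes were more positive (0.00902%) and 3 more negative (0.0135%) in unprimed nodules, 0.0225% of genes tested in all. Sftpb was higher in D2.A1 in unprimed nodules and not in primed ones, where it was at 3.11 and 3.61 in D2.A1 against 6.70, 6.04 and 7.06 in D2.OR (difference of effects 6.26, adjusted p = 0.049). Rgs5 differed by −2.92 (adjusted p = 0.016), with 2.46 and 2.46 against 3.43, 3.01 and 3.00 in primed nodules. The other genes were Igkv15-103, an immunoglobulin segment (−2.81, adjusted p = 0.00071), Mmrn2 of endothelium (−1.48, adjusted p = 0.015) and Il17rc, a receptor subunit for interleukin-17 (1.21, adjusted p = 0.049). This count was 1 to 7 in most fits without 1 nodule, but 263 and 339 without D2.OR 2D nodule 2 or 3 and 195 without D2.OR 3D nodule 2.

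**Figure D4:**
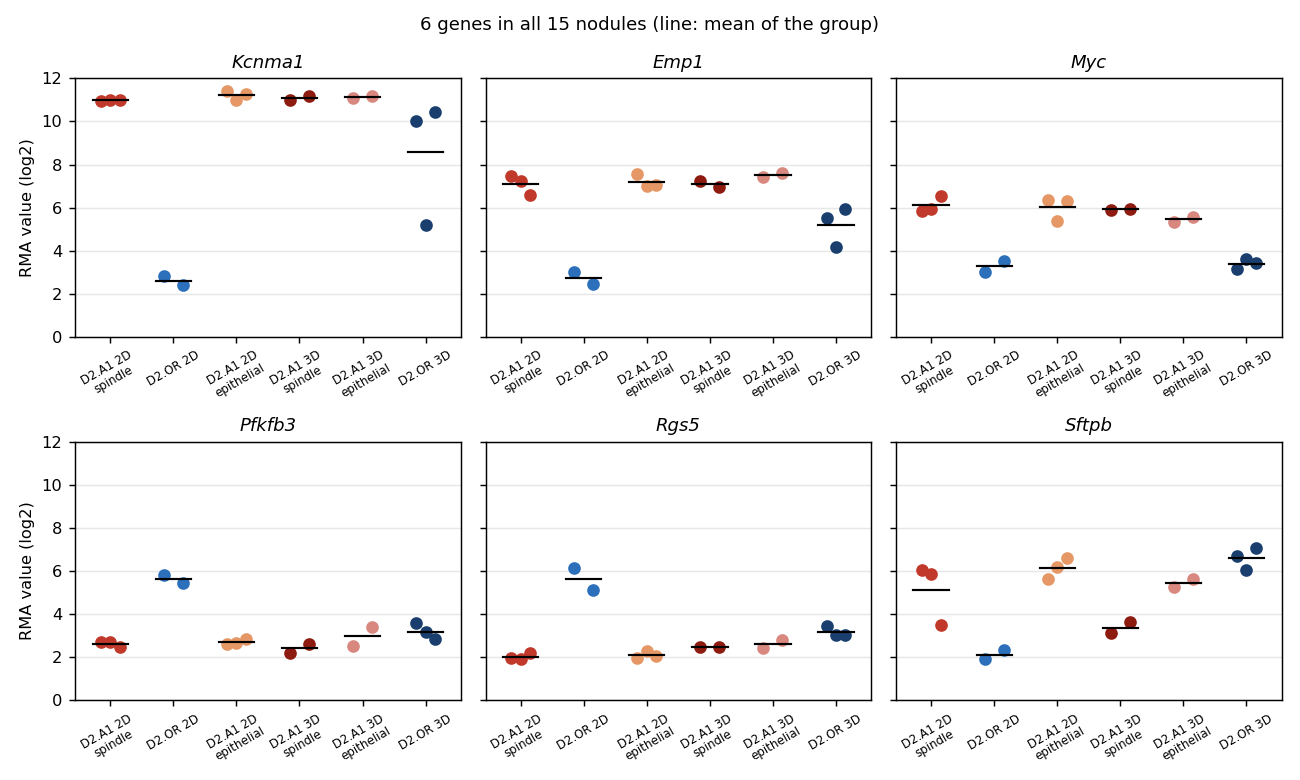
RMA values (log2, vertical axis from 0) of 6 genes in all 15 nodules by group, with 1 point per nodule and a line at the mean of each group. Myc is at 5.35 to 6.54 in the D2.A1 nodules and 3.00 to 3.62 in the D2.OR nodules, while Pfkfb3 and Rgs5 are highest in the 2 D2.OR 2D nodules and Kcnma1 and Emp1 lowest there.

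To ask whether the difference belonged to spindle nodules, these were compared with the epithelial D2.A1 2D nodules. No gene passed (limma, with 475 higher and 490 lower at unadjusted p under 0.05), the lowest adjusted p being 0.10. Against the same 2 D2.OR nodules the epithelial nodules had 159 genes higher and 416 lower. Kcnma1 differed from D2.OR by 8.38 in spindle and 8.62 in epithelial nodules, Emp1 by 4.37 and 4.48, Pfkfb3 by −3.01 and −2.93 and Fabp4 by −7.81 and −7.82. Saa3 differed by 4.50 in spindle and 1.31 in epithelial nodules (adjusted p = 0.18 for the latter), and Arg1 by 1.35 and 0.10, and neither difference between the 2 morphologies passed (adjusted p = 0.10 and 0.21). These comparisons share the D2.OR arrays and are given side by side.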

How the data were processed

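RNA of laser-microdissected, formalin-fixed lung nodules was measured with 1 Affymetrix Mouse Gene 2.0 ST array per nodule. The deposited values are log2 values, 1 per transcript cluster and array, which the authors made with Robust Multi-array Average (RMA). The submitters' processing notes name RMA, Affymetrix Expression Console and Transcriptome Analysis Console, with no version in the sources used here. RMA scales arrays to each other, so a shift shared by most genes is lost. No detection calls or scan dates were used; precision is limited by how few arrays there are.

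Of 41345 clusters, 23525 had 1 gene symbol, 1816 several and 16004 none; the cluster with the highest mean over all arrays stood for each of 22184 genes, without a filter on weak signals. Differences between group means were fitted in R 4.3.3 with limma 3.58.1 over all 15 arrays and 6 groups (9 residual and 3.2 prior degrees of freedom), with Benjamini-Hochberg adjustment over all genes and a threshold of 0.05. The fit was tested on simulated data. Array medians ran from 1.81 to 1.91, and no 2 arrays were identical.

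Of 964 genes in 42 lists 897 were measured, 5 through an older symbol. The members and lists were chosen with earlier results of these data known, and 5 lists, the chromosome 15 run included, were added after the values were seen. Named genes are the 15 largest differences in each direction that passed without overlap between the lines, up to 4 passing members of each list (or the 2 largest where none passed), the Pfkfb genes and the 5 largest in each direction of each other contrast; genes named beyond these were chosen after their values were seen. Gene order and promoters come from RefSeq (GRCm38.p6), and no promoter was printed for genes without an entry. The build of the array annotation is not given in the sources used here. Alternatives covered normalization, filters, the prior, array weights, the arrays in the fit, the methods' analysis of variance, fold thresholds, a replicate block and each array left out.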

Additional observations from a re-analysis of the deposited data

Results flagged for a closer look

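The difference between the lines was itself different in unprimed and primed spindle nodules for 5 genes (limma, adjusted p under 0.05, 0.0225% of genes tested). It was more negative in unprimed nodules for Rgs5 (−2.92), Igkv15-103 (−2.81) and Mmrn2 (−1.48), and more positive for Sftpb (6.26) and Il17rc (1.21). Igkv15-103 was at 2.36, 2.36 and 2.70 in D2.A1 2D spindle nodules against 5.44 and 5.65 in D2.OR 2D, and at 2.00 and 2.14 against 2.16, 2.53 and 2.30 in the primed nodules. Mmrn2 was at 2.29, 2.37 and 2.18 against 3.47 and 3.57, and at 2.93 and 2.87 against 2.51, 2.76 and 2.70. In both genes the D2.OR 2D nodules stood above all other nodules compared.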

How the results depend on the processing

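Without a change in the arrays used, 163 genes rose and 547 fell. Genes that rose numbered 314 after cyclic loess, 101 with the replicate block, 51 with only arrays of spindle histology, 25 with only the 5 arrays, 64 at 3-fold or more, 38 against D2.OR 3D and 94 to 137 without 1 nodule. Genes that fell numbered 158 with only arrays of spindle histology, 40 with only the 5 arrays, 192 at 3-fold or more, 275 by the methods' analysis of variance at 2-fold and an unadjusted p under 0.05, 40 against D2.OR 3D and 267 to 961 without 1 nodule, the highest being without D2.OR nodule 2. After Benjamini-Hochberg adjustment the analysis of variance on the 5 arrays called 0 genes in either direction. The other alternatives kept both counts within 1.5 times.

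In primed nodules 61 genes passed, and 100 with only genes above the median gene, 98 with all clusters, 636 with array weights, 176 after cyclic loess, 16 with only arrays of spindle histology, 34 at 3-fold or more and 16 to 589 without 1 nodule. For the difference of the line effects 5 passed, and 10 with all clusters, 21 with array weights, 23 after cyclic loess, 3 with centred medians, 1 with only arrays of spindle histology, 1 with the replicate block, 3 at 3-fold or more and 1 to 339 without 1 nodule. Between spindle and epithelial D2.A1 2D nodules 0 passed, and 1 with only genes above the median gene, 1 with array weights, 1 after cyclic loess, 3 with a trended robust prior and 0 to 1 without 1 nodule. The cause was not tested, beyond the smaller number of samples or genes in a fit.

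Deviations from the group means were correlated to look for pairing by replicate number. A correlation over 0.1 was found in 8 of 31 pairs with the same number (median −0.01) and in 14 of 62 other pairs (median 0.01). Such deviations cancel within each group, which forces correlations of opposite sign, so these values do not decide whether the numbers pair the nodules. Over the 123 named genes and 15 alternatives, 1383 of 1845 values kept direction and side of the threshold, 443 lost the call, 12 gained it and 7 turned sign, none of the last in a gene that had passed. Pfkfb4 (0.0044 over all arrays) turned to −0.0084 after cyclic loess, −0.017 with centred medians and −0.040 with the replicate block, and ran from −0.047 to 0.050 without 1 nodule. Without 1 nodule Scgb1a1 ran from −0.65 (without D2.A1 nodule 1) to 1.84, and Pfkfb2 from −0.26 to 0.022 (the latter without D2.OR nodule 2). Differences of genes near the floor of the array, with values close to the median of 1.94, are limited by weak signal.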

Other observations

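Histone genes (listed with their values already known) were higher in the D2.A1 spindle nodules, with 8 of 30 measured members that rose and none that fell (limma, 15 higher, 0 lower at unadjusted p under 0.05, median 0.43). H1f5, a linker histone, was at 8.19, 8.52 and 8.20 against a D2.OR mean of 4.71 ± 1.83 (SD, n = 2; difference 3.60, limma adjusted p = 0.034), H2ax, the histone phosphorylated at DNA breaks, at 5.62, 6.05 and 6.07 against 2.08 and 3.71 (3.02, adjusted p = 0.011), and H2bc12 differed by 2.89. H1f5 and H2ax lost their calls without D2.OR nodule 2, after which 2 histone genes passed, and H1f5 also without any D2.A1 nodule (adjusted p 0.083 to 0.089). Without 1 D2.A1 nodule 3 to 5 histone genes rose. Against the D2.OR 3D nodules no histone gene passed, and the median was 0.30. Rabggtb, a subunit of a Rab prenyltransferase whose locus also carries small nucleolar RNAs, was at 8.89, 8.37 and 8.73 against 5.22 and 6.28 (2.92, adjusted p = 0.0015). Of 73 small nucleolar RNA genes 7 rose and 3 fell, but 1 rose without D2.OR nodule 2 or D2.A1 nodule 1 or 3, and 3 without D2.A1 nodule 2. Snord118, needed for ribosomal RNA processing, rose by 2.27 (adjusted p = 9.2e-05).

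Of 29 measured segments of immunoglobulin and T cell receptor genes, chosen in the same way, 8 fell and none rose, with 4 without D2.OR nodule 3, 11 without nodule 2 and 5 to 6 without 1 D2.A1 nodule. Ighm, the IgM heavy chain, differed by −3.45, Iglv1 by −3.72 and Trav9d-3 by −3.80. Transcripts of similar segments can bind the same probes, so single segments are uncertain. Xist, the noncoding RNA of the inactive X chromosome, was at 3.34, 2.81 and 2.51 in D2.A1 against 5.64 and 6.16 in D2.OR (−3.01, adjusted p = 0.0014), with all mice labelled female.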
